A study of Mus musculus with 9 samples.

Results

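MiR-22 is a microRNA (miRNA) whose hairpin gives rise to 2 mature arms, miR-22-3p and miR-22-5p. Both were read by name from the small RNA sequencing of 3 adipose depots, where they were 2 of 1251 miRNAs listed. MiR-22-3p was chosen by its measured level, since it ranked first in every library of visceral adipose tissue (VAT), and miR-22-5p was included as the other arm of the same hairpin. The rank of miR-22-3p in VAT and its difference from the other depots are therefore given as a description without a test, whereas miR-22-5p, and miR-22-3p between the depots that the choice did not use, were tested. The tests of miR-22-5p in VAT are not independent of the choice, which rested on the other arm of its hairpin in the same libraries.

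The libraries came from male C57BL/6J mice, which were 5 to 6 weeks old at the start, were fed for 11 weeks a high fat diet (HFD) in which fat gave 45%, protein 20% and carbohydrate 35% of the energy, and were thus at least 16 to 17 weeks old when killed after a fast of 4 h. VAT was epididymal, subcutaneous adipose tissue (SAT) was inguinal and brown adipose tissue (BAT) was interscapular fat, with 3 libraries per depot. These are numbered 12, 15 and 20 for BAT, 14, 19 and 20 for SAT and 14, 17 and 20 for VAT. All the mice had the same strain and diet, so that no diet effect can be read from these data. The numbers are not said to identify mice, and the p values set the differences only against the spread between these libraries.

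MiRNAs are short RNAs cut from a hairpin precursor, and one arm of the duplex is usually kept in the Argonaute protein, where bases 2 to 8, the seed, pair with target mRNAs. The 3p arm is the arm of miR-22 that is usually kept. MiR-22-3p is known as an abundant miRNA of heart and skeletal muscle and has been reported to repress the regulators Hdac4, Sirt1 and Ppara.

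The mature arms (RefSeq, GRCm38.p6) are shown because they carry separate seeds and were counted as separate miRNAs. The seed is in capitals, and each arm is 22 bases long.
miR-22-3p: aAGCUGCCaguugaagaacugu
miR-22-5p: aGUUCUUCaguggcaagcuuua

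The hairpin, Mir22, lies on the plus strand at chr11:75463716-75463810 of GRCm38. It is within exon 2 of both annotated transcripts of its non-coding host gene Mir22hg. The 95 bases are given with the arms in capitals, the 5p arm first.
Mir22: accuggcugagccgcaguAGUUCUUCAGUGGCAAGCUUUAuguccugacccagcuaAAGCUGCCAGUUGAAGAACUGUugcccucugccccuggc

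The arms are parted by 16 bases, and in the predicted fold of lowest free energy (-41.9 kcal/mol) 19 bases of one arm pair with the other, the 7 bases of each seed included. None of the other mature mouse miRNAs among the 1679 names in the sequence table has the seed AGCUGCC of miR-22-3p or the seed GUUCUUC of miR-22-5p. The miR-22-5p bases 2 to 7 also occur in 2 miRNAs, miR-6935-3p and miR-7092-3p, neither of which is listed in the expression table.

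MiR-22-3p was high in all depots. Its log2 level was 16.72, 16.90 and 16.72 in BAT 12, 15 and 20. In SAT 14, 19 and 20 it was 16.72, 17.20 and 17.20. In VAT 14, 17 and 20 it was 18.67 each time, the highest value in the table. The VAT libraries stood above all others, whereas SAT 14 had the same level as BAT 12 and BAT 20.

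Depot means of the log2 level were 18.67 in the 3 VAT libraries, with no spread, 17.04 ± 0.28 in SAT and 16.78 ± 0.11 in BAT (SD, n = 3 in each). VAT was thus 1.90 above BAT and 1.64 above SAT on the log2 scale, which is 3.72-fold and 3.11-fold. Because miR-22-3p was chosen for its VAT rank, no test is given for these differences. The SD of 0 in VAT does not measure precision, since any miRNA ranked first has the value 18.67 in this table.

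**Figure D1:**
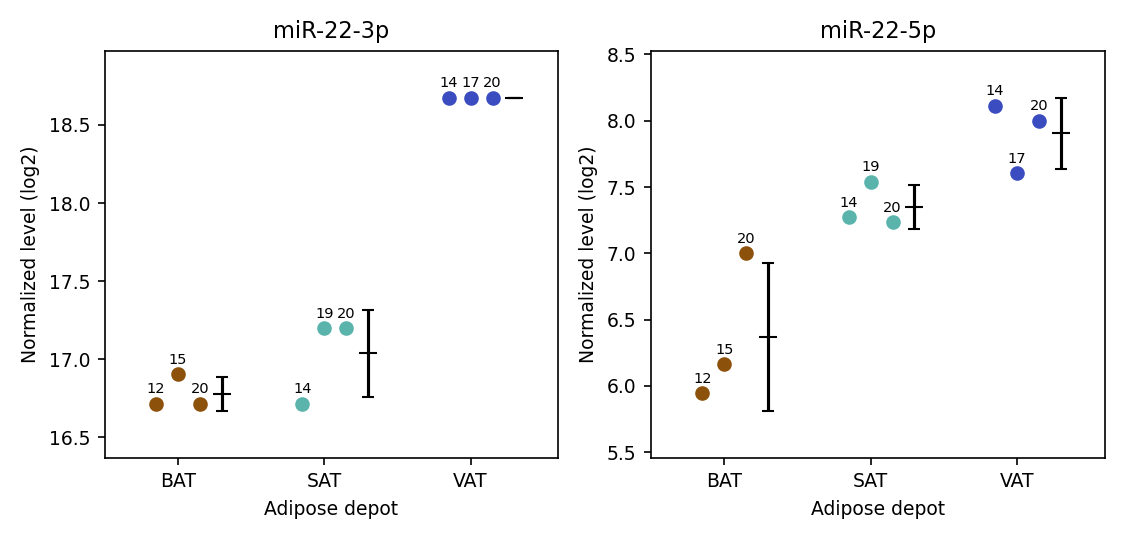
Normalized log2 levels of miR-22-3p (left) and miR-22-5p (right) in each library of BAT, SAT and VAT, with the library number beside each point and the mean ± SD (n = 3) in black. The VAT points of miR-22-3p lie together at 18.67, and those of miR-22-5p lie between 7.60 and 8.11, above the SAT and BAT points; the vertical axes differ and do not start at 0.

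The levels of abundant miRNAs were tied to their order. In every library the log2 level was 18.67 at rank 1, 17.20 at rank 4, 16.90 at rank 5 and 16.72 at rank 6, and the step from rank 1 to rank 2 was 0.903 to 0.998. MiR-22-3p was at rank 1 in the 3 VAT libraries, at ranks 6, 4 and 4 in SAT 14, 19 and 20 and at ranks 6, 5 and 6 in BAT 12, 15 and 20. The difference of 1.64 between VAT and SAT therefore restates a move of 3 to 5 ranks. In unlogged values, miR-22-3p made up 17.3% of the summed values of each VAT library, 4.45% to 6.23% in SAT and 4.45% to 5.07% in BAT.

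The miRNAs next to it differed by depot. Just below miR-22-3p in VAT were let-7c-5p, a let-7 family member linked to differentiation, with a log2 level of 17.77 in VAT 14 and VAT 17, and miR-10b-5p, encoded in a Hox cluster, with 17.77 in VAT 20. MiR-26a-5p was close behind, at 17.20, 17.58 and 17.58 in VAT 14, 17 and 20. In SAT, let-7c-5p was first at 18.67, followed by let-7a-5p at 17.77 and miR-181a-5p at 17.58 in the 3 libraries, all of them above miR-22-3p.

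In BAT the first rank went to miR-378a-3p, which lies in an intron of Ppargc1b, in BAT 12 and BAT 15 and to the muscle miRNA miR-133a-3p in BAT 20. MiR-486-5p and miR-3107-5p, whose values were identical, shared the next place at 17.68 in every BAT library. MiR-191-5p, the reference for the qPCR of the study, had a log2 level of 15.92 ± 0.32 in BAT, 16.09 ± 0.26 in SAT and 15.92 ± 0.32 in VAT (SD, n = 3 in each).

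**Figure D2:**
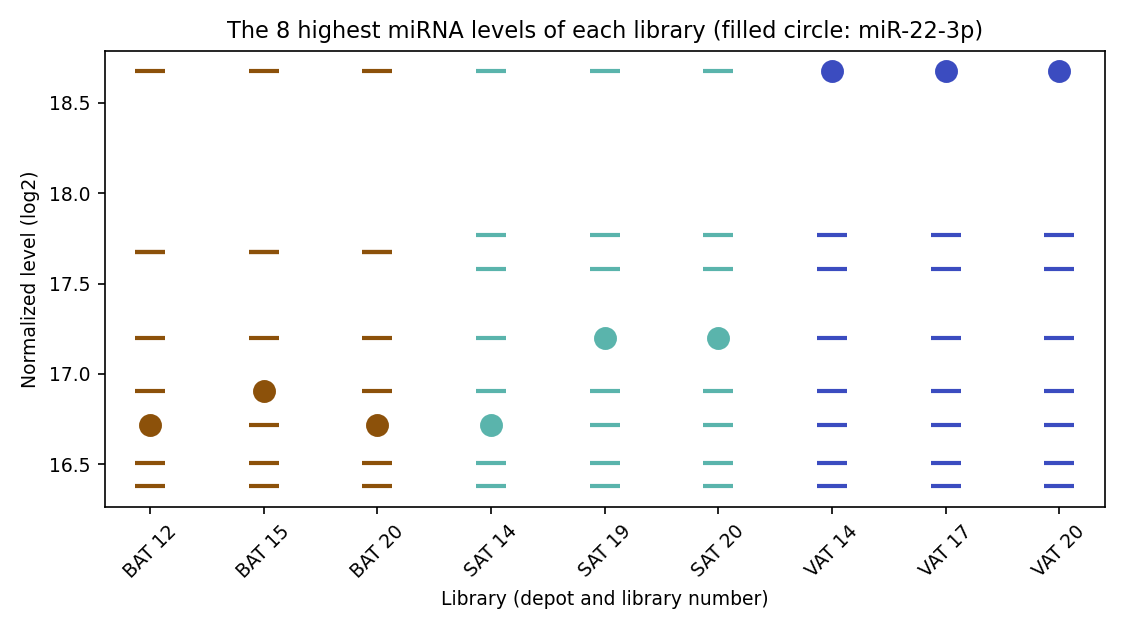
Log2 levels of the 8 highest miRNAs in each of the 9 libraries, each miRNA a dash and miR-22-3p a filled circle. The dashes sit at nearly the same heights in every library, and the circle is at 18.67 in VAT, at 17.20 or 16.72 in SAT and at 16.90 or 16.72 in BAT; ties in BAT at 17.68 overlie each other.

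Between SAT and BAT, which the choice of miR-22-3p did not use, its log2 difference was 0.26 (standard error 0.17, 95% confidence interval -0.19 to 0.71). The limma test did not call it, with a Benjamini-Hochberg adjusted p of 0.280 over the 343 miRNAs tested, and the libraries overlapped. Without SAT 14, the library at the BAT level, SAT 19 and SAT 20 were left, both at the rank 4 value of 17.20. The difference was then 0.42 and limma's adjusted p 0.0388, with a SAT spread of 0 that does not measure precision. Epithelial miRNAs were also highest in SAT 14, at 0.866% of its summed values against 0.00407% and 0.00577% in SAT 19 and SAT 20, and their part in this result was not tested.

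MiR-22-5p was far lower, and its depots stood in the order VAT, SAT, BAT. Its log2 level was 5.94, 6.16 and 7.0 in BAT 12, 15 and 20. In SAT 14, 19 and 20 it was 7.27, 7.54 and 7.24. In VAT 14, 17 and 20 it was 8.11, 7.60 and 8.0. Every VAT library was above every SAT library and every SAT library above every BAT library, although VAT 17 exceeded SAT 19 by little.

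The depot means of miR-22-5p were 7.91 ± 0.27 in VAT, 7.35 ± 0.17 in SAT and 6.37 ± 0.56 in BAT (SD of the log2 level, n = 3 in each). These levels put it at ranks 143 to 162 in VAT, 162 to 174 in SAT and 181 to 215 in BAT of the 1251 miRNAs. All 9 values were above the lowest value in the table, 3.32, so both arms passed the filter. For comparison, the median SD of the tested miRNAs was 0.27 in VAT, 0.35 in SAT and 0.47 in BAT.

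In VAT/BAT, miR-22-5p was higher in VAT by 1.54 on the log2 scale (standard error 0.35), a 2.90-fold difference that passed limma's test (adjusted p = 0.00896). It did not pass without the filter on low values (adjusted p = 0.0883). Without BAT 15, BAT 20 and VAT 20, the libraries highest in the muscle miRNA miR-133a-3p, the difference was 1.91. Too few BAT libraries were then left to judge a test. With all libraries and the filter, passing was a common result in that comparison. The same threshold was passed by 66.2% of the 343 miRNAs, 39.4% being higher in VAT, and for 44.3% every VAT library was above every BAT library. MiR-22-5p was 107th in the order of log2 differences.

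In SAT/BAT the difference was 0.98 (standard error 0.32), or 1.97-fold, with an adjusted p of 0.0626, so that miR-22-5p did not pass, although the libraries did not overlap. Of all miRNAs tested 40.5% passed, 22.4% being higher in SAT, and 31.5% had every SAT library above every BAT library. The call depended on the libraries and on the fit. Without BAT 20 the difference was 1.30 and the adjusted p 0.00639. With BAT 20 kept, the adjusted p was 0.0299 with all 9 libraries in 1 fit, 0.0304 with the library number as a block and 0.0401 with only miRNAs above the median mean level.

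In VAT/SAT the difference of 0.56 (standard error 0.18, 1.47-fold) had an adjusted p of 0.0986, and over 19 alternatives the adjusted p ranged from 0.0511 to 0.518. MiR-22-5p therefore stood higher in each VAT library than in any SAT library without passing the threshold, its 95% confidence interval running from 0.10 to 1.02 before adjustment. In this comparison 16.0% of the miRNAs passed, 8.45% being higher in VAT, and 22.4% had all VAT above all SAT libraries. This background was not stable, since the 55 calls became 0 without SAT 19, 5 without VAT 20, 12 without SAT 20 and 23 without VAT 14 by limma. In the fit with 0 calls, 104 miRNAs had an unadjusted p under 0.05. VAT/BAT and VAT/SAT share the VAT libraries, and VAT/BAT and SAT/BAT the BAT libraries.

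**Figure D3:**
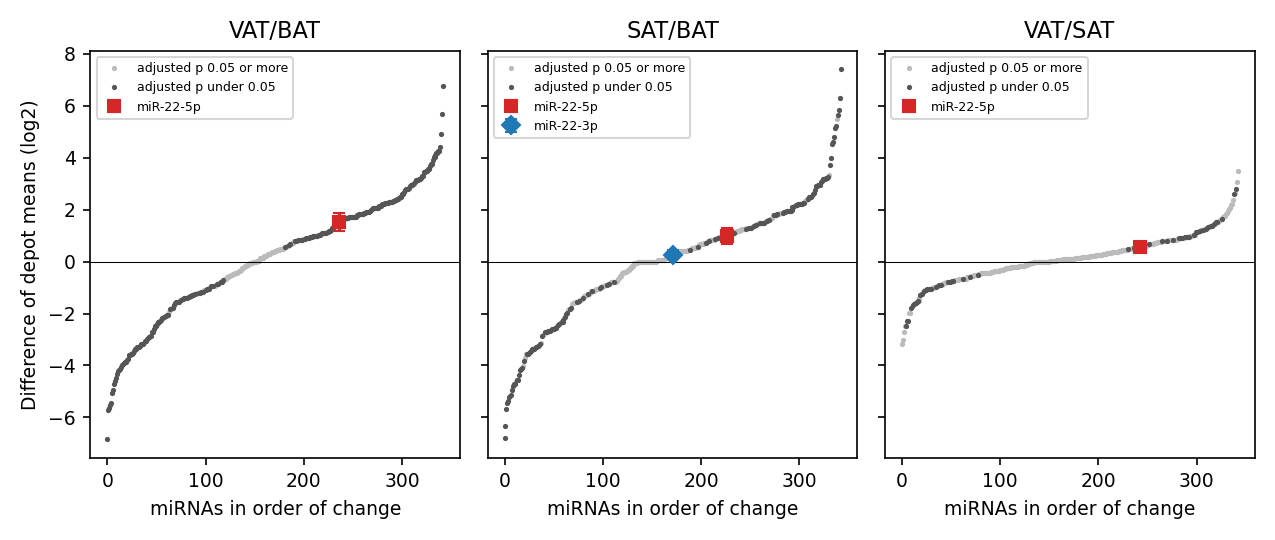
Log2 differences between depot means of the 343 tested miRNAs, ordered by size in each pairwise comparison, in dark grey where limma's adjusted p was under 0.05. The square is miR-22-5p at 1.54 (VAT/BAT), 0.98 (SAT/BAT) and 0.56 (VAT/SAT), the diamond is miR-22-3p at 0.26 (SAT/BAT only), and the bars are standard errors.

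The distance between the arms was large in all depots. MiR-22-3p exceeded miR-22-5p by a log2 difference of 10.77, 10.74 and 9.71 in BAT 12, 15 and 20. In SAT 14, 19 and 20 the difference was 9.44, 9.66 and 9.96. In VAT 14, 17 and 20 it was 10.56, 11.07 and 10.68. The VAT libraries lay above the SAT libraries, and BAT spanned both, since BAT 20 was near SAT and the other BAT libraries near VAT.

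In depot means the 3p arm was 825-fold above the 5p arm in SAT, 1359-fold in BAT and 1744-fold in VAT. As log2 differences these are 9.69 ± 0.26, 10.41 ± 0.60 and 10.77 ± 0.27 (SD, n = 3 in each). SAT was lower than BAT by 0.72 (standard error 0.36) in limma's test on arm differences, with an adjusted p of 0.179 over 187 hairpins, of which 33.2% passed. Without BAT 20 this difference was -1.07 and passed, with an adjusted p of 0.0275. The VAT distance was 1.08 above that of SAT and 0.36 above that of BAT, without a test, because it holds the VAT level of miR-22-3p. Without BAT 20 the distance from BAT was 0.013, and without any other single library it was 0.21 to 0.54. It was 0.72 with a further 40 added to the unlogged values, 0.24 with the lowest value subtracted and 0.044 without BAT 15, BAT 20 and VAT 20.

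Among these 187 hairpins, which have both arms listed and at least 1 arm tested, miR-22 was seventh by the absolute mean distance of its arms over 9 libraries, at 10.29. By depot it came at place 11 for SAT, 7 for BAT and 4 for VAT, where the level of miR-22-3p was used in the choice. Next above was miR-125a at 10.37, with the 5p arm as the higher one, and next below was miR-29a at 10.25, with the 3p arm higher. The lower arm, miR-29a-5p, never rose above the lowest value, and miR-125a-3p was at it in 1 library, so that these distances are cut short. In 31 hairpins the lower arm was above the lowest value in all libraries, a subset picked with the values in view, and among them miR-22 had the largest distance, followed by miR-486 at 8.34, with a median of 3.54. The places over 9 libraries include the VAT libraries in which miR-22-3p was chosen.

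**Figure D4:**
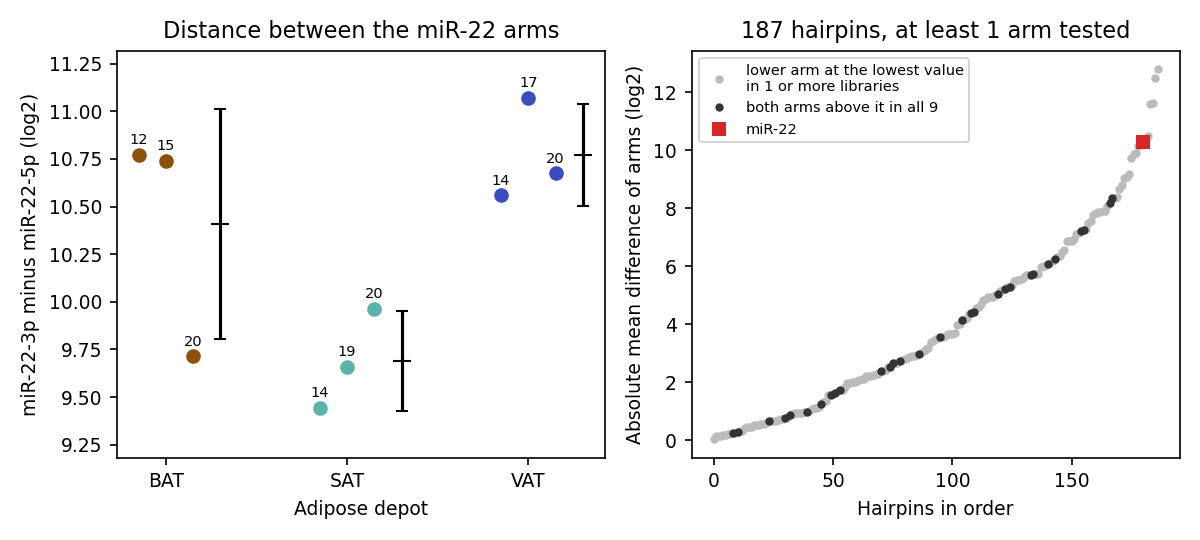
Left, the log2 difference between miR-22-3p and miR-22-5p in each library, with library numbers and the mean ± SD (n = 3); the axis does not start at 0. Right, the absolute mean difference between the arms of 187 hairpins in rising order, with miR-22 (square) at 10.29; grey points have a lower arm at the lowest value in at least 1 library.

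Both arms had their highest mean in VAT and their lowest in BAT. Over the 9 libraries, which fall into depots, Pearson's r between the log2 levels of the arms was 0.76, and 48 other tested miRNAs were more like miR-22-3p than miR-22-5p was. These correlations describe patterns that all libraries of a depot share.

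The 5 miRNAs most like miR-22-3p were miR-144-5p (r = 0.98), miR-409-5p (0.97), miR-15a-5p (0.96), miR-511-3p (0.96) and miR-379-3p (0.95). Of these, 4 were at the lowest value, 3.32, in every BAT and SAT library and above it in every VAT library. They passed the filter only through VAT, where miR-22-3p was chosen as the highest. Their likeness to it was therefore largely set in advance. MiR-409-5p was at only 3.83 to 3.92 in VAT. MiR-144-5p comes from a hairpin of red blood cells and miR-511-3p from an intron of the macrophage receptor gene Mrc1. MiR-15a-5p, of the family that represses Bcl2, was the one measured above the lowest value in all 9 libraries, with mean log2 levels of 7.52 in BAT, 8.32 in SAT and 9.68 in VAT. The least like miR-22-3p were miR-125a-5p (r = -0.92), miR-193a-5p (-0.91) and miR-423-3p (-0.89).

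For miR-22-5p the most alike were miR-1839-5p (r = 0.96), miR-872-5p (0.96), miR-199a-3p and miR-199b-3p (0.95 each) and let-7i-5p (0.95). MiR-199a-3p and miR-199b-3p, which mark fibroblasts and other mesenchymal cells, have the same mature sequence and held the same values here, with BAT, SAT and VAT means of 10.03, 12.23 and 13.18 on the log2 scale. At the other end were miR-151-3p (r = -0.95), the brown fat miRNA miR-193b-3p (-0.91) and miR-1900 (-0.91). MiR-1900 was above the lowest value in BAT alone. MiR-193b-3p had BAT, SAT and VAT means of 14.38, 10.94 and 10.77 on the log2 scale.

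**Figure D5:**
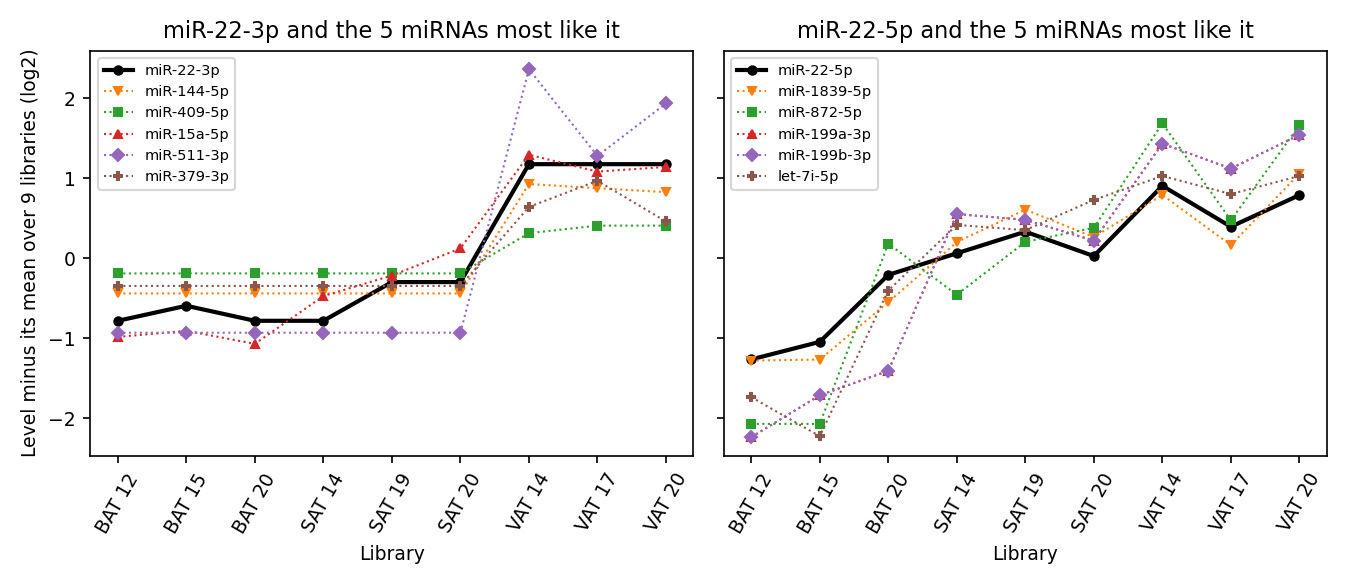
Log2 levels of miR-22-3p (left), miR-22-5p (right) and the 5 miRNAs with the highest Pearson's r to each, every miRNA minus its own mean over the 9 libraries; the dotted and solid lines only join the points of a miRNA. The lines on the left step up at VAT, those on the right rise from BAT to SAT and less from SAT to VAT, and miR-199a-3p and miR-199b-3p overlie each other.

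Lists of miRNAs that mark tissues and cell types were summed in unlogged values for each library, as shares of its total. The 5 brown adipose miRNAs made up 6.96% to 19.4% in BAT, 1.52% to 1.60% in SAT and 2.15% to 3.27% in VAT, and the 4 white adipose miRNAs 0.00166% to 0.00374% in BAT, where 3 of them were at the lowest value, 0.174% to 0.222% in SAT and 0.0756% to 0.103% in VAT. The brown list was thus highest in BAT, and the white list higher in VAT and SAT than in BAT, although miR-196a-5p of the white list was at 3.96 in VAT 14 against 9.57 and 9.16 in VAT 17 and VAT 20. This order was partly set in advance. The study had named miR-193b-5p of the brown list and miR-335-3p and miR-224-5p of the white list for these depot differences in the same data. In bulk tissue, fewer cells of a type and less RNA per cell cannot be told apart.

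MiR-22 is also expressed in muscle. The 9 miRNAs of the muscle list made up 8.71%, 14.9% and 26.1% of BAT 12, 15 and 20. They made up 1.23% to 1.67% of the SAT libraries and 1.35%, 2.59% and 7.46% of VAT 14, 17 and 20, with miR-208a-3p, miR-208b-3p and miR-499-5p at the lowest value throughout. In BAT 12, in SAT and in VAT 14 nearly all of this was miR-486-5p, which red cells also express and whose values were those of miR-3107-5p. In BAT 12 its log2 level was 17.68, that of miR-133a-3p 10.10, and the others were at the lowest value. BAT 20, the highest in this list, was also the highest BAT library for miR-22-5p. In VAT this was not so, with miR-22-5p at 8.0 in VAT 20 and 8.11 in VAT 14. The BAT libraries had the largest shares of this list and the lowest levels of miR-22-5p. BAT 20 also had the lowest BAT share of the brown adipose miRNAs, 6.96% against 19.4% and 18.7% in BAT 12 and BAT 15. The part of muscle in the levels of miR-22 was not tested. With the muscle list removed, the mean rank of miR-22-3p in BAT moved from 5.67 to 4. This had to follow, since miR-486-5p stood above miR-22-3p in every BAT library and miR-133a-3p did so in BAT 15 and BAT 20.

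The lists of other cells moved with miR-22-5p in part. The 3 red cell miRNAs made up 0.0195% to 0.0356% in BAT, 0.0412% to 0.0561% in SAT and 0.0972% to 0.150% in VAT, with miR-144-3p at the lowest value in all libraries. For the 2 endothelial miRNAs the shares were 0.123% to 0.199% in BAT and 0.410% to 0.517% in SAT, and VAT had 0.493% to 0.529%. The 7 leukocyte miRNAs were at 0.845% to 1.15% in BAT, 0.552% to 4.68% in SAT and 0.351% to 0.854% in VAT, with SAT 20 the highest and miR-155-5p at the lowest value throughout. Most of that share was miR-150-5p, a lymphocyte miRNA. The myeloid miRNA miR-223-3p was at the lowest value in BAT and had log2 levels of 9.0 to 9.27 in SAT and 9.85 to 10.38 in VAT, the order of miR-22-5p. The depot means of miR-142-5p and miR-146a-5p had this order too, although SAT 20 (11.88 and 10.08) exceeded every VAT library in both. MiR-511-3p was above the lowest value in VAT alone. MiR-150-5p had its lowest mean in VAT (13.12, against 14.52 in BAT and 14.71 in SAT), but the VAT and SAT libraries overlapped. It was at 13.56, 13.84 and 16.72 in SAT 14, 19 and 20 and at 14.11 in VAT 17. MiR-142-3p was higher in SAT (mean 4.71) than in VAT (4.48). The 6 epithelial miRNAs were all at the lowest value in BAT, and reached 0.0516% in VAT, in VAT 20. The part of these cells in the levels of miR-22 was not tested.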

How the data were processed

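Small RNA libraries were sequenced from 3 HFD samples each of BAT, SAT and VAT. According to the methods of the study, the authors aligned reads with miRBase precursor sequences, counted those that fell on the mature part, split multiply mapped reads in proportion, normalized to total usable reads and added 40 counts. The labels give the build as mm10. The deposited values are log2 values of 1251 miRNAs in 9 columns, with a lowest value of 3.32, the log2 of 10. At the 10 highest ranks the libraries differed by 0.09 at most, as after quantile normalization, a step not given in the sources used here. No read counts are in the table, so the depth is unknown, and no interval for counting error is given.

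The values were used as deposited. MiRNAs that exceeded the lowest value in 3 or more of the 9 libraries, 343 in all, were tested with limma 3.58.1 (R 4.3.3) on the 6 libraries of each comparison, two-sided, without a block, with Benjamini-Hochberg adjustment. A miRNA was called at an adjusted p under 0.05. Alternatives included the unmoderated test of the study's methods, other filters, offsets and scalings, blocks and left-out libraries. On simulated data for VAT/BAT (20 draws, a log2 change of 2 in 60 of the 343), 69.7% of the changed miRNAs were recovered with 5.37% false calls. The draws were independent normal values, with fewer changed miRNAs than were called here and no values tied to ranks. These rates therefore need not hold for the data.

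Arm differences were fitted likewise over 187 hairpins. Sequences came from RefSeq (GRCm38.p6), where 288 of the 343 tested names matched, the host gene from GENCODE M21 and the fold from ViennaRNA 2.7.2. Named were both arms, the miRNAs at the top 3 ranks, the 5 most and 3 least alike by Pearson's r, hairpins next in order, the qPCR reference and lists of tissue and cell markers. A further list is not reported here. For miR-486-5p, miR-142 and miR-126 the older names of the table were used. The members and lists were chosen with earlier results of these data known.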

Additional observations from a re-analysis of the deposited data

How the results depend on the processing

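MiR-22-5p kept its direction in the 19 alternatives of each comparison. In VAT/BAT the log2 differences over all 19 were 1.18 to 1.91, with adjusted p of 0.00201 to 0.0883. MiR-22-5p passed in 17 of them and did not pass without a filter (1.54, adjusted p = 0.0883). The other alternative, without BAT 15, BAT 20 and VAT 20, the libraries highest in miR-133a-3p, gave 1.91. That alternative was chosen after seeing the data and leaves 1 BAT library, too few to judge a test. In SAT/BAT it passed in 5 of 19 (adjusted p 0.00639 to 0.336), namely with only miRNAs above the median mean level (0.98, adjusted p = 0.0401), with all 9 libraries in 1 fit (0.98, adjusted p = 0.0299), without the muscle-rich libraries (1.41, adjusted p = 0.0303), with the library number as replicate block (0.97, adjusted p = 0.0304) and without BAT 20. Leaving out each library gave 1.32 to 1.85 in VAT/BAT, 0.77 to 1.30 in SAT/BAT and 0.45 to 0.71 in VAT/SAT for miR-22-5p, 0.18 to 0.42 for miR-22-3p in SAT/BAT and -1.07 to -0.54 for the arm difference in SAT/BAT. The untested differences of miR-22-3p were 1.84 to 1.96 for VAT minus BAT and 1.47 to 1.81 for VAT minus SAT over 13 alternatives.

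Calls over all miRNAs moved more. VAT/BAT had 227, 128 without a filter, 120 above the median mean level and 130 without the muscle-rich libraries. SAT/BAT had 139, 74 without a filter and 112 to 142 with a library left out. VAT/SAT had 55, 4 without a filter, 2 relative to miR-191-5p, 13 without moderation and 30 in 1 fit of all libraries. It had 0 to 49 with a library left out. The 0, without SAT 19, had 104 miRNAs at an unadjusted p under 0.05 in limma. Arm differences in SAT/BAT had 62 calls, 29 without a filter, 95 in 1 fit, 38 without the muscle-rich libraries and 28 to 63 with a library left out. Fewer or more miRNAs were tested without a filter or above the median mean level, and leaving out libraries leaves fewer samples; other causes were not tested.

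With the number in the labels as a replicate block, VAT/SAT had 30 calls and the arm difference 95, as in the same fit without it. With the order within the depot as a replicate block they had 0 and 36, the 0 with 105 miRNAs at an unadjusted p under 0.05 in limma. The deviations from depot means correlated at -0.14 to 0.27 in the 4 pairs of libraries with the same number. In the 23 pairs with other numbers they correlated at -0.48 to 0.36. With so few pairs this cannot decide whether equal numbers mean the same mouse. The numbers, which are not said to identify mice, were not taken to pair the samples. Without read counts, what depth limits cannot be given.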
